A study of Mus musculus with 24 samples.

Results

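CD11c- adipose tissue macrophages (ATM) of mice that had lost weight (WL) were compared with CD11c- ATM of lean mice kept on normal diet (ND). The samples were chosen by their titles: 2 arrays of WL CD11c- ATM and 2 arrays of ND CD11c- ATM, which are 4 of the 24 arrays and 2 of the 9 groups of the series. All mice were male C57Bl/6. The WL mice had eaten a high fat diet (HFD) with 60% fat for 12 weeks and then had that diet withdrawn for 8 weeks, and the ND mice were lean. CD11c- ATM of obese HFD mice (3 arrays) are given beside them. The other groups were CD11c+ ATM of WL and HFD mice, adipose tissue dendritic cells (ATDC) of HFD and ND mice and preadipocytes (PA) of HFD and ND mice. The cells were live cells sorted by flow cytometry from gonadal (epididymal) fat that had been minced and digested with collagenase. Cells of 4 lean mice made up the 2 ND pools, and 3 to 4 obese mice each HFD pool. The pooling of the WL cells and the surface markers of the sort besides CD11c are not stated in these sources. The animals behind each WL array are therefore not known, and a p-value here measures only the spread between sorted pools. That spread was taken for each gene over all 9 groups, so it also holds the spread within groups of other cell types. Too few CD11c+ ATM were present in lean fat to be purified, so the CD11c- cells were the only macrophages measured in all 3 diets.

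Macrophages of fat take up lipid, clear dying adipocytes and remodel the matrix around them. CD11c, the integrin chain encoded by Itgax, marks the macrophages that gather around dying adipocytes in obesity, while CD11c- cells include the resident macrophages of lean fat, known for scavenger receptors such as Cd163, Lyve1 and Timd4. The comparison asks whether CD11c- cells of formerly obese fat carry the RNA of CD11c- cells of lean fat.

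The label was first checked against marker genes. All values below are the authors' log2 array values, on which a difference of 1 is a doubling of the signal, and levels are compared between arrays for the same gene and never between genes. The 17 macrophage identity genes had a median level of 10.03 and 9.92 in WL CD11c- ATM, against 10.63 and 10.70 in ND CD11c- ATM and 4.20 to 5.60 in the ND PA arrays. Adgre1, which encodes the macrophage surface protein F4/80, had 9.64 and 9.92 in WL against 10.00 and 10.02 in ND. The difference was -0.23 ± 0.67 (SE; adjusted p = 0.92). Cd68, a lysosomal membrane protein of macrophages, had 11.09 and 11.13 in WL against 11.13 and 11.06 in ND. The difference was 0.01 ± 0.6 (SE; adjusted p = 0.99). Csf1r, the receptor for the macrophage growth factor CSF1, differed by -0.76 (adjusted p = 0.6), Mrc1, the mannose receptor, by -0.6 (adjusted p = 0.7) and Itgam, which encodes CD11b, by -0.53 (adjusted p = 0.73). The macrophage markers were thus high in all 4 arrays, and of the 17 only Cd163, described below, passed the test. Defining genes of several other cell types were also above ND in the WL arrays, as given below.

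The 24 arrays had medians between 2.96 and 3.15, and that median is used as the lower limit of a readable level. The 2 WL CD11c- ATM arrays correlated with each other at 0.918 over the 15496 tested genes and the 2 ND arrays at 0.961. WL with ND arrays correlated at 0.881 to 0.893 and WL with HFD CD11c- ATM arrays at 0.9 to 0.929; these values describe arrays that share genes and normalization. HFD replicate 3 stood above the other HFD arrays for most matrix and fibroblast genes, and HFD replicate 1 for several mast cell genes, as the values below show. The number of arrays limits the precision throughout.

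Of 15496 genes tested, 957 differed between WL and ND CD11c- ATM, or 6.18%, by limma with Benjamini-Hochberg adjustment at a threshold of 0.05. In WL cells 500 genes rose (3.23% of those tested) and 457 fell (2.95%), and 3037 had an unadjusted p under 0.05. The split of the calls depended on the arrays fitted: a fit of the 4 compared arrays alone gave 222 genes, 184 higher and 38 lower (82.9% higher, against 52.2%). The 2 WL arrays and the 2 ND arrays did not overlap for 499 of the 500 and for all 457, against 48.0% of all tested genes. The rises had a median size of 2.33 on the log2 scale and the falls one of 1.48, or 2.2 and 1.46 with genes that one group held at or below the array median set at their lower bound. Each of the 4 arrays was also left out in turn. Leaving out WL replicate 1 gave 724 genes, WL replicate 2 gave 834, ND replicate 1 gave 400 and ND replicate 2 gave 374, and 193 genes (133 higher, 60 lower) passed in every one of these 4 fits. A call is described below as lost where its adjusted p was above 0.05 in such a fit, with the highest p beside it. For comparison, HFD CD11c- ATM differed from ND CD11c- ATM at 95 genes (68 higher and 27 lower, 0.439% and 0.174%; 0.613% in all), and WL differed from HFD CD11c- ATM at 459 (182 higher and 277 lower, 1.17% and 1.79% of those tested; 2.96% in all). These comparisons share arrays with WL against ND, so their values are only set side by side below.

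**Figure D1:**
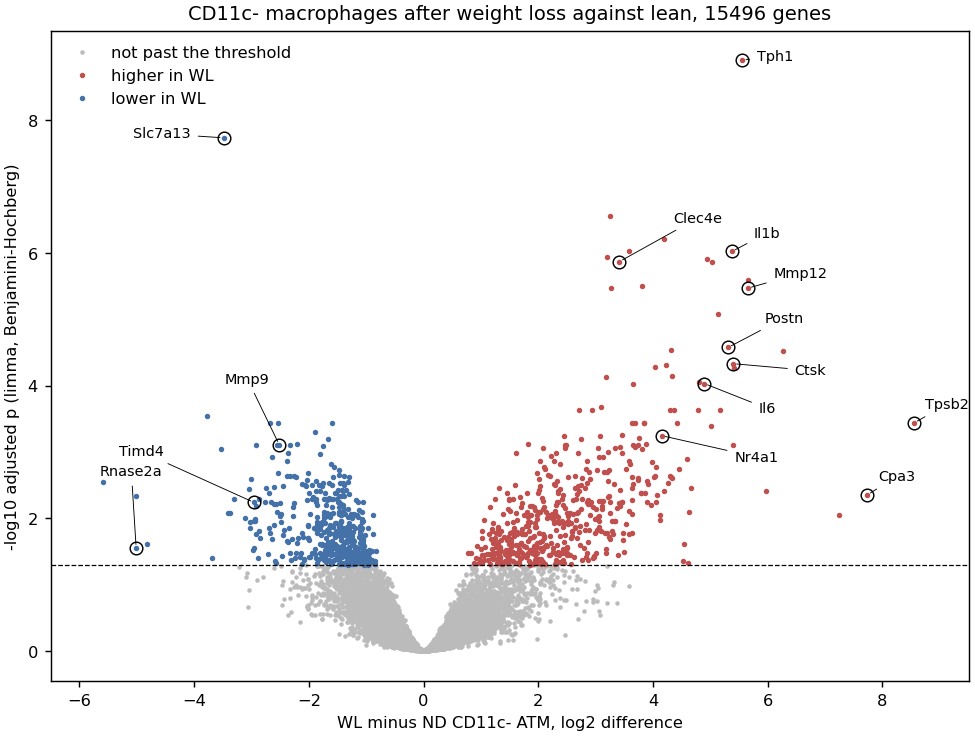
Difference of WL minus ND CD11c- ATM (x axis, log2) and -log10 of the adjusted p (y axis; limma, Benjamini-Hochberg) for the 15496 genes tested, with the dashed line at 0.05; red points are the 500 genes higher in WL and blue points the 457 lower in WL. Tpsb2 and Cpa3 lie farthest to the right, Tph1 is highest on the y axis, and the ringed genes are described in the text.

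The 500 rises drew on genes with different patterns over the other sorted cells. The WL CD11c- mean was the highest of all 9 groups for 125 of them (25.0%, against 8.8% of all tested genes). For 255 (51.0%, against 54.6% of all tested genes) the mean in ND PA was above the mean in WL CD11c- ATM. In 106 (21.2%, against 15.4%) no ND array was above its own median, so that only a lower bound of the rise could be read. Among the 457 falls, the ND CD11c- mean was the highest of the 9 groups for 274 (60.0%, against 12.8% of all tested genes) and the WL CD11c- mean the lowest for 235 (51.4%, against 16.4%). Rises were called for WL above ND and falls for ND above WL, which by itself moves such shares. The shares of all tested genes are therefore not a like reference, and no result is drawn from the contrast.

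The largest rises were genes of mast cells, the granulated immune cells that store proteases and histamine. All 12 mast cell genes tested rose, against 3.23% of all genes, with a median fitted difference of 5.39 against -0.08 over all tested genes. In 10 of the 12 no ND array was above its median, and the list's median was 4.81 with these at their lower bound (-0.02 over all tested genes treated alike); 11 or 12 passed with any 1 of the 4 arrays left out. The filter asked for only 2 arrays above their median, so a mast cell gene could be tested through its WL arrays alone. For Tpsab1, Hdc, Slc6a4 and Gata2 no HFD or ND CD11c- ATM array was above its median. With at least 4 arrays required above the median, 10 mast cell genes were tested and all 10 rose. With no filter on dim genes, all 12 were tested and all 12 rose. Tpsb2, a mast cell tryptase, had 10.14 and 10.46 in WL, 7.23, 2.55 and 4.85 in HFD and 1.12 and 2.37 in ND. The WL minus ND difference was 8.55 ± 1.22 (SE; adjusted p = 0.00036), and at least 7.18 when ND is set at the array median. The related tryptase gene Tpsab1, which the probes of Tpsb2 may in part also read, had 6.91 and 8.29 in WL, 2.74, 2.34 and 2.48 in HFD and 2.85 and 2.47 in ND. The difference was 4.94 ± 0.44 (SE; adjusted p = 1.2e-06) and at least 4.49. Both WL arrays were far above both ND arrays for each tryptase. The values of Tpsb2 in HFD spread from below the array median to 7.23, with replicate 1 the highest.

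Cpa3, the carboxypeptidase of mast cell granules, had 10.55 and 10.87 in WL, 8.43, 2.29 and 6.25 in HFD and 2.96 and 2.98 in ND. The difference was 7.73 ± 1.51 (SE; adjusted p = 0.0044) and at least 7.59. Mcpt4, a mast cell chymase, had 9.46 and 9.68 in WL, 7.74, 1.56 and 5.91 in HFD and 1.93 and 2.72 in ND. The difference was 7.24 ± 1.58 (SE; adjusted p = 0.0087) and at least 6.45. The WL arrays lay close together for both genes and above every HFD array, while the HFD arrays of each gene spanned several log2 units. The call of Mcpt4 was lost without ND replicate 1 (adjusted p up to 0.075). The RefSeq promoter windows of Cpa3 and Mcpt4, 300 bases around the start, are shown because both genes were among the largest rises and GATA factors are known to act in mast cells. The window of Cpa3 is chr3:20242132-20242431 on the minus strand and that of Mcpt4 chr14:56062261-56062560 on the minus strand, both in GRCm38.p6. Capitals mark the letters GATAA, searched on both strands (TTATC on the other):
Cpa3: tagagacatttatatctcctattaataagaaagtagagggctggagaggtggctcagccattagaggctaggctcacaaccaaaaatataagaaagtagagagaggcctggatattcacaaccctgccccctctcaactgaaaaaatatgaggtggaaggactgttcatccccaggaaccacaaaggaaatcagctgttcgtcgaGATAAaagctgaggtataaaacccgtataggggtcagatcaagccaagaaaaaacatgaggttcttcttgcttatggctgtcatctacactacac
Mcpt4: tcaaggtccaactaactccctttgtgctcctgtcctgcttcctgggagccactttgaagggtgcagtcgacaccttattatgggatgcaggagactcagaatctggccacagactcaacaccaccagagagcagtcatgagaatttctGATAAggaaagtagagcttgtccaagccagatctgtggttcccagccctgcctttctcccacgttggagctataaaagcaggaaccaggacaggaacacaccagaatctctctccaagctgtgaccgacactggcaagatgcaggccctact
Each window held 1 match, and 25.4% of 32851 RefSeq mouse windows held at least 1. Of the 12 mast cell genes, 10 had a window and 6 of these held the letters in at least 1 of their windows. A gene can have several windows, of which the first by position is shown. The count by gene is therefore not comparable with the share of single windows. A match is a description of the sequence and not a site.

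Fcer1a, the alpha chain of the IgE receptor, had 7.57 and 8.43 in WL, 3.24, 2.1 and 2.92 in HFD and 1.88 and 1.6 in ND. The difference was 6.26 ± 0.71 (SE; adjusted p = 3e-05) and at least 4.89. Kit, the receptor for stem cell factor on which mast cells depend, had 7.22 and 9.05 in WL, 4.31, 3.91 and 4.01 in HFD and 2.86 and 3.15 in ND. The difference was 5.13 ± 0.53 (SE; adjusted p = 8.2e-06). Hdc, the enzyme that makes histamine, had 6.44 and 7.7 in WL, 3.01, 2.23 and 2.09 in HFD and 1.94 and 2.16 in ND. The difference was 5.02 ± 0.45 (SE; adjusted p = 1.4e-06) and at least 3.96. For Fcer1a and Hdc the HFD and ND arrays all lay near or below the array medians, and WL replicate 2 was above WL replicate 1 for all of Fcer1a, Kit and Hdc. Cma1, another mast cell chymase, differed by 5.97 (adjusted p = 0.0039), Slc6a4, the serotonin transporter, by 3.81 (adjusted p = 3.2e-06) and at least 2.63, Ms4a2, the beta chain of the IgE receptor, by 2.7 (adjusted p = 0.00023) and at least 2.43, and Gata2, a transcription factor of mast cell precursors, by 2.64 (adjusted p = 0.0023) and at least 1.8. Mrgprb1, of a receptor family with several similar copies, differed by 5.65 (adjusted p = 2.5e-06) and at least 4.73.

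A pair of related genes outside the list rose as well. Tph1, the enzyme that starts serotonin synthesis outside neurons, had 7.78 and 7.25 in WL, 2.21, 2.67 and 2.06 in HFD and 2.18 and 1.74 in ND. The difference was 5.56 ± 0.3 (SE; adjusted p = 1.2e-09) and at least 4.4. Its WL minus HFD difference was 5.2 ± 0.27 (SE; adjusted p = 7.9e-10) and at least 4.44, since no HFD or ND array was above its median. Mrgprb2, the mast cell receptor for basic secretagogues, had 7.22 and 7.68 in WL, 4.26, 1.33 and 2.21 in HFD and 1.62 and 2.47 in ND. The difference was 5.4 ± 0.64 (SE; adjusted p = 5.3e-05) and at least 4.34.

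The median level of the 12 mast cell genes was 7.39 and 8.36 in WL CD11c- ATM, 3.61, 2.26 and 2.79 in HFD CD11c- ATM and 2.36 and 2.42 in ND CD11c- ATM. It was 3.27 to 4.39 in WL CD11c+ ATM and 2.22 to 2.36 in ND PA. The WL CD11c- arrays were thus the highest of the series on this list, and in ND the list lay below the array median. In WL CD11c+ ATM the granule protease gene Tpsb2 averaged 6.95, Cpa3 7.84, Mcpt4 7.41 and Cma1 6.43. In bulk samples such as these, more or fewer cells of a type and more or less RNA per cell cannot be told apart. The part of mast cells in the other differences was not tested. Between WL and HFD CD11c- ATM, 10 of the 12 genes passed, all higher in WL (1.17% of all tested genes); between HFD and ND none of the 12 did, against 0.439% of all genes higher and 0.174% lower, and 2 were higher in HFD at an unadjusted p under 0.05.

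**Figure D2:**
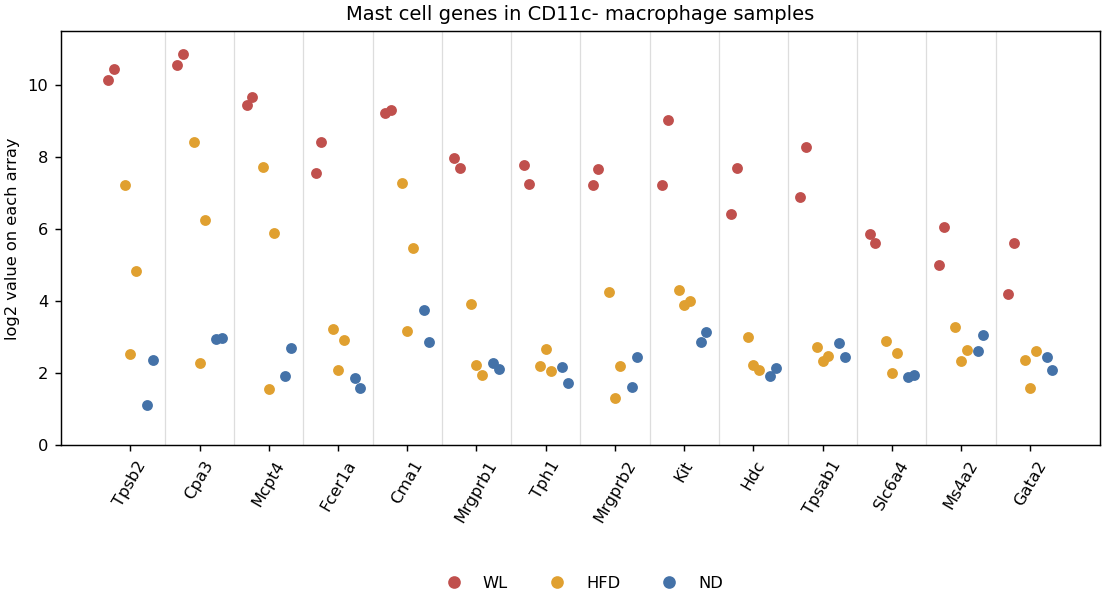
Log2 level (axis) of the 12 mast cell genes, Tph1 and Mrgprb2 in each CD11c- ATM array, with WL in red, HFD in orange and ND in blue. For Tpsb2 the WL arrays read 10.14 and 10.46 and the ND arrays 1.12 and 2.37; the HFD arrays spread widely for the granule protease genes Tpsb2, Cpa3, Mcpt4 and Cma1.

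Genes of the extracellular matrix and of the enzymes that cut it formed the next large group of rises. Of 41 fibrillar collagen and matrix genes, 27 rose and none fell (3.23% and 2.95% of all genes), with a median difference of 2.91; at an unadjusted p under 0.05, 34 were higher and 0 lower. Of 21 matrix remodelling genes, 12 rose and 1 fell, with a median of 2.49. The count of 27 depended on single arrays: leaving out WL replicate 1 gave 16, WL replicate 2 gave 24, ND replicate 1 gave 19 and ND replicate 2 gave 13.

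Mmp12, the macrophage elastase, had 9.42 and 9.89 in WL, 7.73, 7.08 and 8.69 in HFD and 3.36 and 4.64 in ND. The difference was 5.66 ± 0.55 (SE; adjusted p = 3.4e-06). Ctsk, the collagen-cutting cathepsin K, had 8.54 and 8.83 in WL, 8.33, 6.21 and 8.92 in HFD and 3.21 and 3.36 in ND. The difference was 5.4 ± 0.63 (SE; adjusted p = 4.7e-05). Mmp2, a gelatinase, had 9.08 and 8.7 in WL, 6.81, 6.44 and 9.24 in HFD and 2.79 and 4.23 in ND. The difference was 5.39 ± 0.83 (SE; adjusted p = 0.00078). All 3 protease genes separated WL from ND by several log2 units, and the HFD arrays lay above the ND arrays as well. HFD minus ND was 3.84 (adjusted p = 0.00057) for Mmp12, 4.53 (adjusted p = 0.00054) for Ctsk and 3.99 (adjusted p = 0.018) for Mmp2. WL minus HFD was 1.82 (adjusted p = 0.055) for Mmp12, 0.86 (adjusted p = 0.47) for Ctsk (95% confidence interval -0.34 to 2.07) and 1.4 (adjusted p = 0.36) for Mmp2. Mmp14, the membrane-bound protease that activates MMP2, had 9.08 and 8.74 in WL, 6.31, 6.03 and 8.49 in HFD and 4.65 and 3.59 in ND. The difference was 4.79 ± 0.64 (SE; adjusted p = 0.00023). Prss23, a secreted serine protease, had 8.99 and 8.94 in WL, 6.85, 7.52 and 9.49 in HFD and 3.7 and 4.21 in ND. The difference was 5.01 ± 0.72 (SE; adjusted p = 0.00041). Timp1, an inhibitor of metalloproteases, had 8.36 and 7.26 in WL, 6.79, 7.47 and 9.16 in HFD and 3.55 and 4.03 in ND. The difference was 4.02 ± 0.71 (SE; adjusted p = 0.0023).

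Among the matrix proteins, Postn, which encodes periostin, had 9.5 and 9.5 in WL, 8.59, 7.86 and 10.36 in HFD and 4.23 and 4.14 in ND. The difference was 5.31 ± 0.59 (SE; adjusted p = 2.6e-05). Its HFD minus ND difference was 4.75 ± 0.54 (SE; adjusted p = 0.00019), and its WL minus HFD difference of 0.56 (adjusted p = 0.65) did not pass (95% confidence interval -0.57 to 1.69). Aebp1, which encodes a collagen-binding matrix protein, had 9.24 and 9.0 in WL, 6.49, 6.77 and 8.87 in HFD and 4.81 and 3.09 in ND. The difference was 5.17 ± 0.69 (SE; adjusted p = 0.00023). Col6a1, a chain of the beaded collagen around adipocytes, had 9.5 and 8.95 in WL, 7.75, 7.42 and 9.82 in HFD and 4.88 and 3.98 in ND. The difference was 4.8 ± 0.6 (SE; adjusted p = 8.8e-05). The WL arrays again lay above the ND arrays by more than 4 log2 units, and HFD replicate 3 was the highest HFD array for each of these 3 genes. Lum, a proteoglycan that binds collagen fibrils, differed by 4.33 ± 0.53 (SE; adjusted p = 7e-05), Col3a1 by 3.88 ± 0.59 (SE; adjusted p = 0.00075) and Col1a1 by 3.25 ± 0.66 (SE; adjusted p = 0.0056); the last call was lost without ND replicate 2 (adjusted p up to 0.075). Nid1, a basement membrane protein, differed by 4.53 ± 1.3 (SE; adjusted p = 0.043), a call lost with any of the 4 arrays left out (adjusted p up to 0.27). The matricellular gene Thbs1 had a difference of 3.32 (adjusted p = 0.09) and the fibronectin gene Fn1 one of 1.52 (adjusted p = 0.091), neither past the threshold.

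The markers of preadipocytes and fibroblasts moved in the same arrays. Of 18 tested, 12 rose and none fell (3.23% and 2.95% of all genes; 15 and 0 at an unadjusted p under 0.05), with a median of 2.31, and 6 to 10 rose with 1 array left out (6 without ND replicate 2). Pdgfra, the PDGF receptor that marks adipocyte progenitors, had 8.57 and 7.24 in WL, 6.31, 4.32 and 8.16 in HFD and 3.97 and 3.59 in ND. The difference was 4.12 ± 0.9 (SE; adjusted p = 0.0088), a call lost without WL replicate 1 or ND replicate 2 (adjusted p up to 0.083). Pdgfrb, its sister receptor, had 6.4 and 6.97 in WL, 4.7, 4.5 and 7.41 in HFD and 2.88 and 2.57 in ND. The difference was 3.96 ± 0.82 (SE; adjusted p = 0.0062) and at least 3.57, a call lost without ND replicate 2 (adjusted p up to 0.058). The median level of the 18 genes was 8.61 and 7.56 in WL, 6.79, 6.92 and 8.54 in HFD and 6.09 and 5.44 in ND CD11c- ATM. In the preadipocytes themselves it was 9.87 to 10.14 on HFD and 9.48 to 9.76 on ND. Postn averaged 11.19 in HFD PA and 9.02 in ND PA, Ctsk 10.03 and 8.99, and Mmp2 10.68 and 10.24. The part of preadipocytes or fibroblasts in the matrix result was not tested. None of the 18 preadipocyte genes and none of the 41 matrix genes passed between WL and HFD, where 2.96% of all genes did (4 and 5 were higher in WL at an unadjusted p under 0.05). Between HFD and ND 4 and 10 rose, against 0.439% of all genes.

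**Figure D3:**
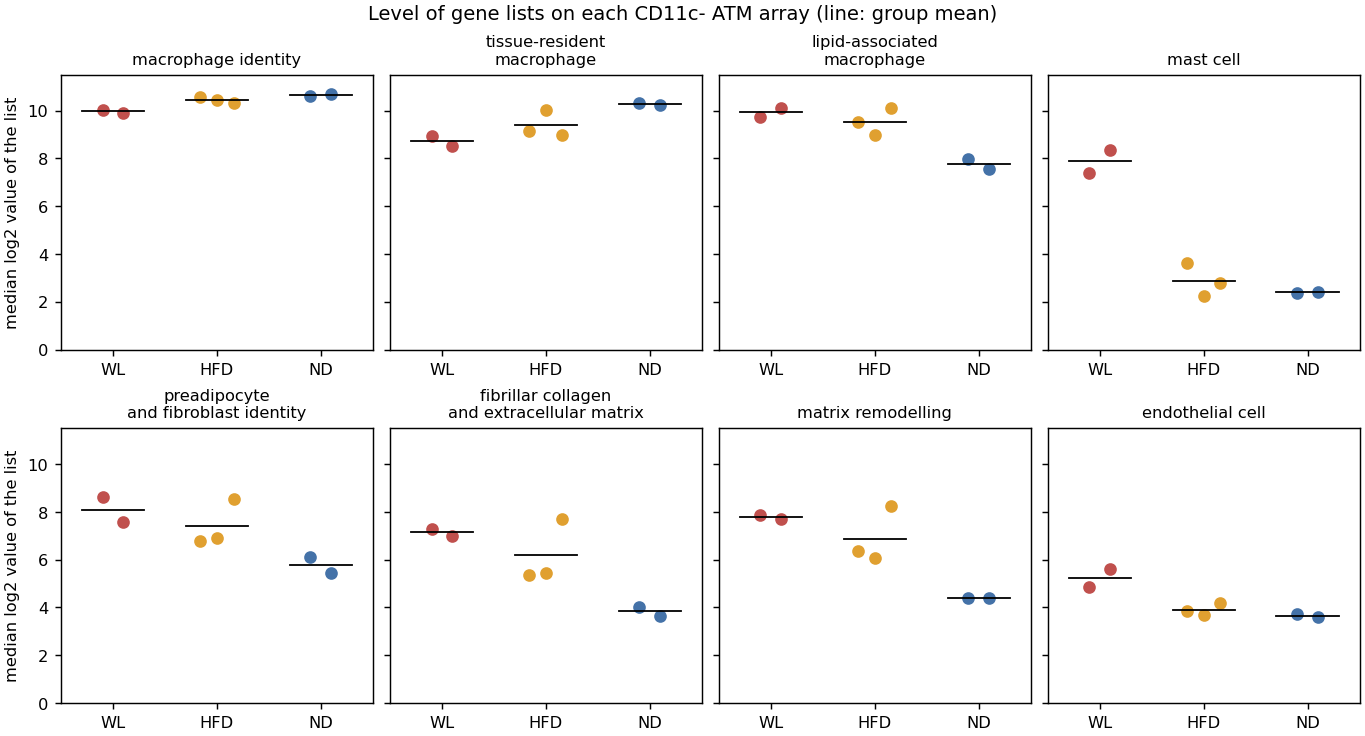
Median log2 level of 8 gene lists (1 panel each) in every array of WL, HFD and ND CD11c- ATM, each point 1 array and each line a group mean. The mast cell panel is high in the 2 WL CD11c- ATM arrays at 7.39 and 8.36, and the tissue-resident panel runs the other way, with 8.94 and 8.52 in WL against 10.33 and 10.25 in ND.

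The lipid-associated macrophage program, the genes that macrophages of fat switch on around lipid-laden or dying adipocytes, was partly raised. Of 23 genes tested, 10 rose and none fell (3.23% and 2.95% of all genes; 11 and 0 at an unadjusted p under 0.05), with a median difference of 0.95, and 5 to 9 rose with 1 array left out (5 without ND replicate 1 and 5 without WL replicate 2). Its median level was 9.75 and 10.10 in WL, 9.53, 8.96 and 10.09 in HFD and 7.97 and 7.56 in ND CD11c- ATM, and 10.19 to 10.51 in WL CD11c+ ATM. In preadipocytes it was 8.44 to 8.85 on ND and 8.76 to 9.66 on HFD, also above ND CD11c- ATM. Gpnmb averaged 8.76 in ND PA and 10.02 in HFD PA, Itgax 3.35 and 5.89, and Atp6v0d2 2.34 and 7.57. Of the other members that rose, Mmp12 averaged 4.76 in ND PA and 8.32 in HFD PA, and Cd9 7.11 and 8.44. Ctsk averaged 8.99 and 10.03, Fabp5 8.98 and 10.03, and Lpl 10.81 and 11.16. The part of preadipocytes in these rises was not tested.

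Gpnmb, a glycoprotein of lysosome-rich macrophages, had 9.92 and 10.58 in WL, 9.53, 8.72 and 10.10 in HFD and 5.63 and 5.96 in ND. The difference was 4.46 ± 0.76 (SE; adjusted p = 0.0018). Itgax had 5.94 and 7.1 in WL, 6.4, 4.93 and 7.07 in HFD and 3.01 and 2.76 in ND. The difference was 3.63 ± 0.73 (SE; adjusted p = 0.0052) and at least 3.41, a call lost without WL replicate 2 (adjusted p up to 0.052). Itgax encodes the CD11c by which these cells were sorted as negative, and its mean was 8.82 in WL CD11c+ ATM and 8.53 in HFD CD11c+ ATM. The CD11c- arrays of WL and HFD mice thus lay between the ND arrays and the CD11c+ groups for the RNA of the sorting marker, and the part of CD11c+ cells in the result was not tested. Cd9, a tetraspanin, had 7.77 and 7.77 in WL, 8.54, 6.79 and 8.21 in HFD and 4.93 and 4.98 in ND. The difference was 2.82 ± 0.53 (SE; adjusted p = 0.0034). Atp6v0d2, a subunit of the lysosomal proton pump, had 8.58 and 9.39 in WL, 9.31, 7.79 and 9.01 in HFD and 4.75 and 6.66 in ND. The difference was 3.28 ± 0.74 (SE; adjusted p = 0.011), a call lost without WL replicate 2 or ND replicate 1 (adjusted p up to 0.16). Lpl, lipoprotein lipase, had 10.97 and 11.03 in WL, 11.22, 10.25 and 11.0 in HFD and 9.31 and 9.56 in ND. The difference was 1.57 ± 0.31 (SE; adjusted p = 0.0051), a call lost without ND replicate 1 (adjusted p up to 0.056). Against HFD these genes did not pass: WL minus HFD was 0.8 (adjusted p = 0.6; 95% confidence interval -0.66 to 2.26) for Gpnmb, 0.39 (adjusted p = 0.83; 95% confidence interval -1.0 to 1.78) for Itgax and -0.08 (adjusted p = 0.96; 95% confidence interval -1.09 to 0.94) for Cd9. Mmp12 and Ctsk, given above, are also among the 10.

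Among the regulators and exporters of lipid, Pparg, the nuclear receptor that drives lipid storage genes, had 7.53 and 7.4 in WL, 8.27, 7.75 and 8.12 in HFD and 5.71 and 6.2 in ND. The difference was 1.51 ± 0.32 (SE; adjusted p = 0.0077), a call lost without ND replicate 1 (adjusted p up to 0.097). Abcg1, which exports cholesterol, had 6.14 and 6.24 in WL, 7.36, 6.52 and 6.82 in HFD and 3.95 and 4.08 in ND. The difference was 2.17 ± 0.38 (SE; adjusted p = 0.0022). Acp5 (tartrate-resistant phosphatase) differed by 1.97 (adjusted p = 0.013), a call lost without WL replicate 2, ND replicate 1 or ND replicate 2 (adjusted p up to 0.11). Lgals3 (galectin-3) differed by 1.25 (adjusted p = 0.02), a call lost with any of the 4 arrays left out (adjusted p up to 0.16), and Fabp5, a fatty acid binding protein, by 1.21 (adjusted p = 0.012), a call lost without WL replicate 2 or ND replicate 1 (adjusted p up to 0.14). Other members did not pass. Trem2, the lipid-sensing receptor of these macrophages, had 9.24 and 8.86 in WL, 9.41, 8.96 and 9.1 in HFD and 7.97 and 7.56 in ND. The difference was 1.29 ± 0.82 (SE; adjusted p = 0.42), with no overlap between WL and ND arrays but short of the threshold. The fatty acid transporter Cd36 differed by -0.03 (adjusted p = 0.97) and the lipoprotein Apoe by -0.3 (adjusted p = 0.48).

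Inflammatory mediators rose in part, led by Il1b and Il6. Of 21 inflammatory cytokine and mediator genes, 5 rose and 1 fell (3.23% and 2.95% of all genes), with a median of 0.86. Il1b, the cytokine released through inflammasomes, had 7.96 and 8.51 in WL, 4.87, 5.07 and 4.56 in HFD and 3.43 and 2.28 in ND. The difference was 5.38 ± 0.46 (SE; adjusted p = 9.5e-07). Il6 had 8.13 and 8.02 in WL, 1.43, 3.17 and 1.74 in HFD and 2.73 and 3.63 in ND. The difference was 4.89 ± 0.61 (SE; adjusted p = 9.3e-05). Both WL arrays stood above every HFD and ND CD11c- ATM array for both cytokines. In WL CD11c+ ATM Il1b averaged 6.8 and Il6 6.07, and in ND ATDC they averaged 7.88 and 2.32. WL minus HFD was 3.4 ± 0.42 (SE; adjusted p = 0.0001) for Il1b and 5.96 ± 0.56 (SE; adjusted p = 2.9e-06) for Il6, whereas HFD minus ND was 1.98 (adjusted p = 0.033) for Il1b and -1.07 (adjusted p = 0.65) for Il6. Ptgs2, the inducible prostaglandin synthase, had 6.5 and 7.04 in WL, 3.76, 3.17 and 4.1 in HFD and 3.3 and 3.09 in ND. The difference was 3.58 ± 0.76 (SE; adjusted p = 0.0077), a call lost without ND replicate 2 (adjusted p up to 0.064). Tnfaip3, a brake on NF-kB signalling, had 8.2 and 8.34 in WL, 7.24, 6.08 and 6.93 in HFD and 6.02 and 5.61 in ND. The difference was 2.46 ± 0.39 (SE; adjusted p = 0.00085). Tnf had 7.53 and 9.03 in WL, 7.32, 6.76 and 6.57 in HFD and 5.98 and 6.68 in ND. The difference was 1.95 ± 0.45 (SE; adjusted p = 0.013), a call lost without WL replicate 2 or ND replicate 1 (adjusted p up to 0.17). WL replicate 2 was the highest CD11c- ATM array for Tnf, and WL replicate 1 was close to the highest HFD CD11c- ATM array. Tnf averaged 8.04 in WL CD11c+ ATM. The member that fell was Il18, a cytokine of the IL-1 family, with 5.98 and 4.91 in WL, 6.45, 7.29 and 6.77 in HFD and 7.04 and 7.3 in ND. The difference was -1.73 ± 0.34 (SE; adjusted p = 0.0051), a call lost without WL replicate 2 or ND replicate 2 (adjusted p up to 0.069).

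Of 24 chemokine ligand genes, 3 rose and none fell (3.23% and 2.95% of all genes; 7 and 2 at an unadjusted p under 0.05), and the list's median difference was 0.00. Cxcl1, a neutrophil attractant, had 8.07 and 8.21 in WL, 6.18, 4.96 and 5.81 in HFD and 3.09 and 3.86 in ND. The difference was 4.67 ± 0.88 (SE; adjusted p = 0.0034). Ccl4, an inflammatory chemokine, had 9.04 and 8.26 in WL, 7.92, 6.57 and 7.05 in HFD and 5.57 and 5.84 in ND. The difference was 2.94 ± 0.4 (SE; adjusted p = 0.00023). Ccl11, the eosinophil attractant eotaxin, had 10.39 and 9.95 in WL, 7.74, 7.28 and 9.03 in HFD and 7.77 and 7.31 in ND. The difference was 2.63 ± 0.5 (SE; adjusted p = 0.0035). The 3 ligands differed in their HFD values: those of Cxcl1 and Ccl4 lay between ND and WL, and those of Ccl11 spanned the ND values. The monocyte attractant Ccl2 differed by 0.76 (adjusted p = 0.46) and its receptor Ccr2 by -0.07 (adjusted p = 0.98), both short of the threshold. Clec4e (Mincle), a receptor for dead cells and mycobacterial lipid, had 7.29 and 7.2 in WL, 5.55, 4.73 and 5.81 in HFD and 3.99 and 3.67 in ND. The difference was 3.41 ± 0.31 (SE; adjusted p = 1.3e-06). It was stepped over the diets, with HFD minus ND of 1.53 (adjusted p = 0.014) and WL minus HFD of 1.88 (adjusted p = 0.0011). Its neighbour Clec4d differed by 2.96 (adjusted p = 0.0068), a call lost without WL replicate 2 or ND replicate 2 (adjusted p up to 0.06), and the IL-1 receptor Il1r1 by 3.74 (adjusted p = 0.0027), a call lost without ND replicate 2 (adjusted p up to 0.06).

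**Figure D4:**
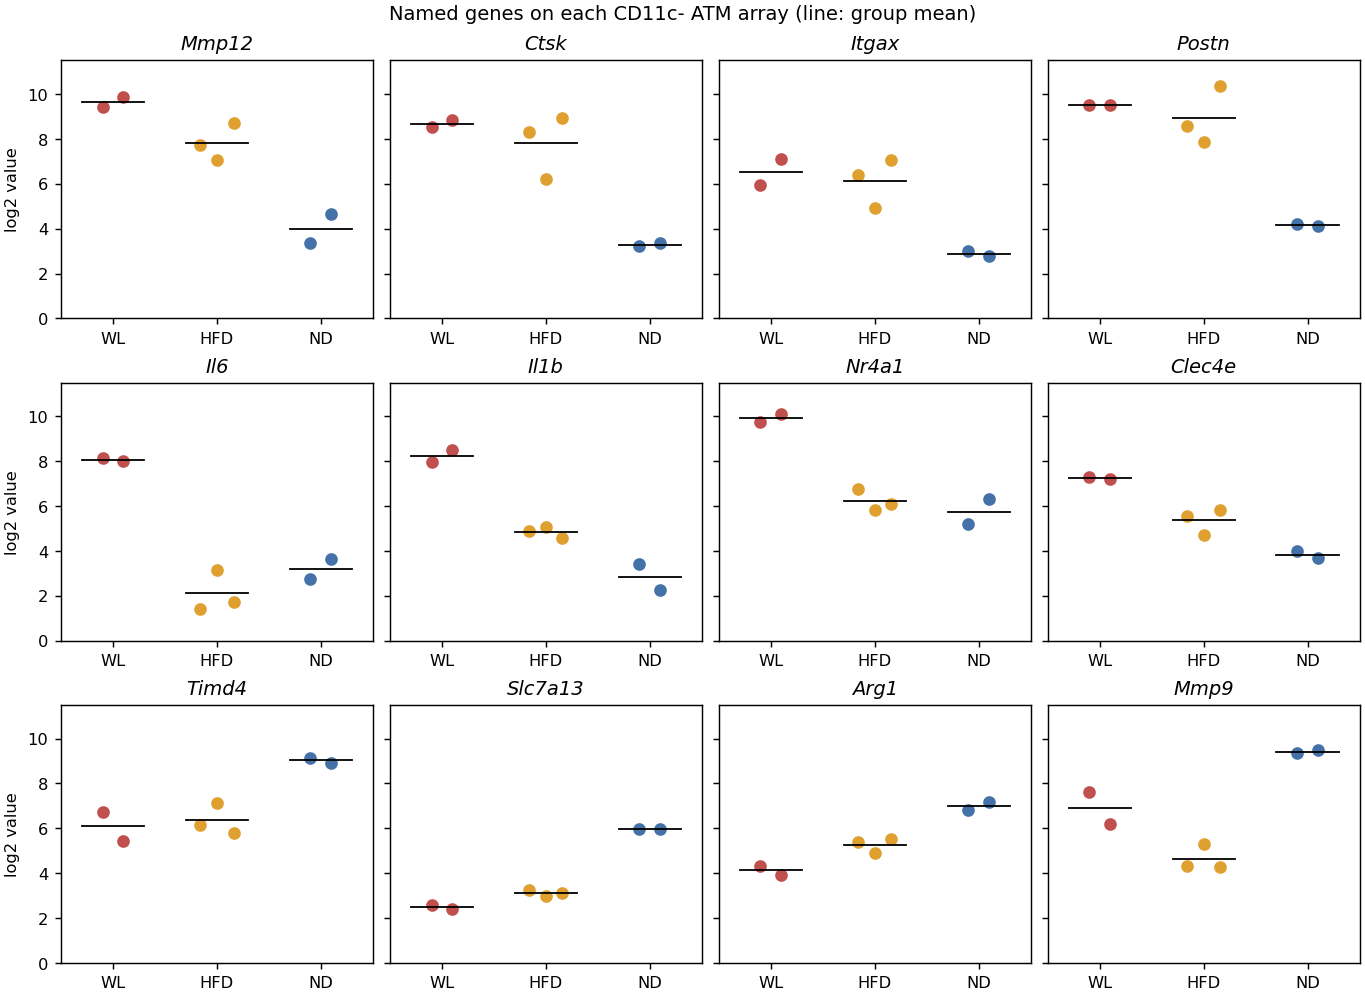
Log2 level of 12 genes (1 panel each) in every CD11c- ATM array, with WL in red, HFD in orange and ND in blue. Mmp12, Ctsk, Itgax and Postn are high in WL and HFD, Il6 is high in the WL arrays at 8.13 and 8.02, and Slc7a13, Timd4, Arg1 and Mmp9 are highest in ND.

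Immediate early genes, which are transcribed within minutes of a stimulus and also during tissue digestion and sorting, were divided. Of 32 genes tested, 8 rose and 1 fell (3.23% and 2.95% of all genes), with a median of 0.52; 6 or 7 rose with 1 array left out. The list's median level was 8.44 and 8.59 in WL, 7.38, 7.48 and 7.56 in HFD and 7.84 and 7.59 in ND. All cells were digested and sorted, and the part of handling in these rises was not tested.

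The orphan nuclear receptors of the NR4A family rose together. Nr4a1 had 9.74 and 10.09 in WL, 6.76, 5.82 and 6.11 in HFD and 5.2 and 6.31 in ND. The difference was 4.16 ± 0.62 (SE; adjusted p = 0.00057). Nr4a3 had 5.74 and 6.52 in WL, 3.92, 4.72 and 3.71 in HFD and 3.5 and 3.28 in ND. The difference was 2.74 ± 0.41 (SE; adjusted p = 0.00063). Nr4a2 had 4.65 and 7.22 in WL, 3.14, 2.27 and 3.0 in HFD and 3.33 and 3.55 in ND. The difference was 2.5 ± 0.69 (SE; adjusted p = 0.035). The WL arrays were above all HFD and ND arrays for the 3 receptors, but those of Nr4a2 lay far apart, and its call was lost without WL replicate 2, ND replicate 1 or ND replicate 2 (adjusted p up to 0.38). WL minus HFD was 3.68 (adjusted p = 0.0014) for Nr4a1, 2.01 (adjusted p = 0.0063) for Nr4a3 and 3.13 (adjusted p = 0.011) for Nr4a2. Nr4a1 averaged 8.37 in WL CD11c+ ATM and 8.15 in ND ATDC. The promoters of the family are shown because its members moved together and CREB, a factor activated by cAMP, is known to act on them through the letters TGACG. The RefSeq windows of 300 bases around the start are, in GRCm38.p6, chr15:101266596-101266895 on the plus strand for Nr4a1, chr2:57123954-57124253 on the minus strand for Nr4a2 and chr4:48045055-48045354 on the plus strand for Nr4a3. Capitals mark TGACG or, on the other strand, CGTCA:
Nr4a1: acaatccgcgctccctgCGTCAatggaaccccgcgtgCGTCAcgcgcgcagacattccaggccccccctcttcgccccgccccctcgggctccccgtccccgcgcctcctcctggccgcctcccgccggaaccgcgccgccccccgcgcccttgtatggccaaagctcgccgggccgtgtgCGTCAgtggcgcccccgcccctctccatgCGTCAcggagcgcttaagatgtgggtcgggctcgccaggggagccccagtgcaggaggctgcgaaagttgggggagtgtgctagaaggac
Nr4a2: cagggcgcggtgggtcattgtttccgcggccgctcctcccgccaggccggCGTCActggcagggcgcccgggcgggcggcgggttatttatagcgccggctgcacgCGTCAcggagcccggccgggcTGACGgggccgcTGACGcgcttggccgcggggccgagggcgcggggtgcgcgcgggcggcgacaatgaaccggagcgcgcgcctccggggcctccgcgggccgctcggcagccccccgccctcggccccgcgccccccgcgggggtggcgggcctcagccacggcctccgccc
Nr4a3: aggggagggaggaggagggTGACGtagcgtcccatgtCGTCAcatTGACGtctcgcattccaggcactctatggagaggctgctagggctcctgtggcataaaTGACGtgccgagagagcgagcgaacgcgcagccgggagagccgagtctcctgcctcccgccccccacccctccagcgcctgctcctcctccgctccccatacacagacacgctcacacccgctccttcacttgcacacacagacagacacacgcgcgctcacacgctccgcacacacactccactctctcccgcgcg
Each of the 3 windows held 4 matches; 4 or more were found in 0.231% of the 32851 windows and at least 1 in 20.8%. The matches were all on the reverse strand in Nr4a1, 2 on each strand in Nr4a2, and 3 forward and 1 reverse in Nr4a3. Of the 33 genes listed as immediate early, 26 had a window and 14 of these held the letters in at least 1 of their windows. This count by gene is not comparable with the shares of single windows, and the motif was chosen with the values of these genes known.

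Other members differed more between arrays. Egr3, an early growth response factor, had 7.21 and 7.87 in WL, 2.49, 4.48 and 4.23 in HFD and 2.55 and 3.88 in ND. The difference was 4.33 ± 0.77 (SE; adjusted p = 0.0025). Ccn1, a matricellular protein, had 8.42 and 8.11 in WL, 4.54, 2.93 and 6.5 in HFD and 4.39 and 3.6 in ND. The difference was 4.27 ± 0.78 (SE; adjusted p = 0.0029). Gadd45b, a stress-response gene, had 8.24 and 9.01 in WL, 7.76, 7.67 and 7.86 in HFD and 5.44 and 6.04 in ND. The difference was 2.88 ± 0.5 (SE; adjusted p = 0.002). For all 3 the WL arrays stood above the other CD11c- ATM arrays, and Gadd45b was also higher in HFD than in ND on every CD11c- ATM array. In WL CD11c+ ATM Egr3 averaged 4.87, Ccn1 7.53 and Gadd45b 8.67. Fosl2, a partner of JUN, differed by 2.1 (adjusted p = 0.0017) and the phosphatase gene Dusp2 by 1.71 (adjusted p = 0.0058), the second call lost without WL replicate 1 or ND replicate 2 (adjusted p up to 0.054). Among the members that did not pass, Fos differed by -0.15 (adjusted p = 0.92), Jun by 0.02 (adjusted p = 0.99) and Egr1 by 0.83 (adjusted p = 0.27). Hspa1a, an inducible heat shock protein, had 7.01 and 6.29 in WL, 7.6, 7.89 and 7.59 in HFD and 8.99 and 8.58 in ND. The difference was -2.14 ± 0.58 (SE; adjusted p = 0.033), a call lost with any of the 4 arrays left out (adjusted p up to 0.19).

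Of the 708 list members tested 22 fell, and of all tested genes 2.95% did. Many of the falls were highest in lean CD11c- cells, but they were called for ND above WL. Trim30c, of a family of interferon-linked TRIM genes with near-identical copies that the probes may not tell apart, had 3.01 and 2.85 in WL, 6.32, 6.91 and 7.0 in HFD and 7.87 and 8.0 in ND. The difference was -5.01 ± 0.98 (SE; adjusted p = 0.0046). With WL at the array median, the fall was at least 4.81 on the log2 scale. Slc7a13, an amino acid transporter, had 2.57 and 2.42 in WL, 3.25, 2.98 and 3.14 in HFD and 5.98 and 5.98 in ND. The difference was -3.49 ± 0.22 (SE; adjusted p = 1.8e-08), a fall of at least 2.85. Its 2 ND arrays read the same to 2 decimals and all 5 WL and HFD arrays lay well below them, with HFD minus ND at -2.86 (adjusted p = 2e-07) and WL minus HFD at -0.63 (adjusted p = 0.11). Dnase1l3, a secreted enzyme that digests DNA of dead cells, had 2.68 and 3.5 in WL, 3.83, 2.65 and 3.49 in HFD and 6.71 and 6.55 in ND. The difference was -3.54 ± 0.56 (SE; adjusted p = 0.0009). Pla2g2d, a secreted phospholipase of resolving immune cells, had 7.37 and 5.8 in WL, 4.9, 6.31 and 5.5 in HFD and 9.61 and 9.64 in ND. The difference was -3.05 ± 0.58 (SE; adjusted p = 0.0036). Like Slc7a13, these genes were low after HFD and after weight loss: HFD minus ND was -3.31 (adjusted p = 0.0032) for Dnase1l3 and -4.06 (adjusted p = 0.00057) for Pla2g2d.

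For Tnfrsf17, Rad1, Smpdl3b and Ms4a8a both WL arrays lay below all HFD arrays as well as both ND arrays. Tnfrsf17, the plasma cell receptor BCMA, had 3.02 and 3.48 in WL, 5.6, 5.83 and 5.91 in HFD and 6.57 and 7.46 in ND. The difference was -3.77 ± 0.52 (SE; adjusted p = 0.00029), and its WL minus HFD difference was -2.53 (adjusted p = 0.0063). Rad1, part of the checkpoint clamp that senses DNA damage, had 2.86 and 3.76 in WL, 6.6, 6.79 and 6.86 in HFD and 5.51 and 5.86 in ND. The difference was -2.38 ± 0.39 (SE; adjusted p = 0.0014); WL minus HFD was -3.45 (adjusted p = 1.1e-05). Smpdl3b, a membrane-bound phosphodiesterase, had 4.35 and 5.0 in WL, 5.76, 6.6 and 6.3 in HFD and 7.57 and 7.79 in ND. The difference was -3.01 ± 0.54 (SE; adjusted p = 0.0025). Ms4a8a, of the MS4A family of membrane proteins, had 6.14 and 5.64 in WL, 7.87, 8.77 and 7.74 in HFD and 8.82 and 9.01 in ND. The difference was -3.02 ± 0.68 (SE; adjusted p = 0.011), a call lost without WL replicate 2, ND replicate 1 or ND replicate 2 (adjusted p up to 0.086).

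The next falls were each lost in at least 1 fit that left out an array. Rnase2a, an eosinophil-type ribonuclease with near-identical copies, had 2.79 and 2.28 in WL, 1.74, 7.01 and 7.47 in HFD and 8.14 and 6.95 in ND. The difference was -5.01 ± 1.32 (SE; adjusted p = 0.028) and at least 4.42 in size, a call lost with any of the 4 arrays left out (adjusted p up to 0.18). Its HFD replicate 1 lay below both WL arrays. The fall of Mterf1b, a mitochondrial transcription terminator with a near-identical copy, was -4.82 ± 1.24 (SE; adjusted p = 0.024) and at least 2.59 in size, a call lost with any of the 4 arrays left out (adjusted p up to 0.2). Clec2i, a lectin-like ligand of NK cell receptors, had 4.36 and 4.28 in WL, 4.31, 7.07 and 5.52 in HFD and 7.64 and 7.83 in ND. It fell by 3.42 (adjusted p = 0.0084), a call lost without ND replicate 1 or ND replicate 2 (adjusted p up to 0.068), and HFD replicate 1 lay between its WL arrays. Gnpda1, an enzyme of glucosamine breakdown, fell by 3.11 (adjusted p = 0.0099), a call lost without WL replicate 2 or ND replicate 1 (adjusted p up to 0.14). H2ac20, a histone H2A gene with near-identical copies, had 2.49 and 2.54 in WL, 5.33, 3.5 and 5.5 in HFD and 5.95 and 5.13 in ND. The difference was -3.03 ± 0.71 (SE; adjusted p = 0.014) and at least 2.42 in size, a call lost without WL replicate 1, WL replicate 2 or ND replicate 1 (adjusted p up to 0.13). Pilrb2, of the paired immunoglobulin-like receptors with similar copies, had 3.52 and 1.94 in WL, 3.27, 3.24 and 4.22 in HFD and 6.45 and 4.94 in ND. The difference was -2.97 ± 0.79 (SE; adjusted p = 0.029), a call lost without WL replicate 2 or ND replicate 1 (adjusted p up to 0.25). Zfp97, a zinc finger gene with similar copies, had 1.75 and 2.55 in WL, 5.91, 3.54 and 5.4 in HFD and 4.74 and 5.32 in ND. The WL minus ND difference was -2.88 (adjusted p = 0.039), a fall of at least 1.9 and a call lost with any of the 4 arrays left out (adjusted p up to 0.23). Its WL minus HFD difference was -2.8 ± 0.74 (SE; adjusted p = 0.044) and at least 1.82 in size. For H2ac20 and Zfp97 no WL array was above its median, and the WL arrays of Pilrb2 overlapped with those of HFD.

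The 23 tissue-resident macrophage genes were lower in WL on the whole, but few passed. All 23 differences were below 0, with a median of -1.32 against -0.08 over all tested genes, and 2 fell (2.95% of all genes; 11 at an unadjusted p under 0.05); 0 or 1 did with 1 array left out. In a fit of the 13 macrophage arrays 5 fell, with the 7 CD11c- ATM arrays 2, and with the 4 compared arrays 0. The list's median level was 8.94 and 8.52 in WL, 9.14, 10.01 and 8.99 in HFD and 10.33 and 10.25 in ND. Timd4, a receptor for dying cells that marks long-lived resident macrophages, had 6.73 and 5.44 in WL, 6.17, 7.14 and 5.78 in HFD and 9.15 and 8.92 in ND. The difference was -2.95 ± 0.6 (SE; adjusted p = 0.0057), a call lost without WL replicate 2 or ND replicate 1 (adjusted p up to 0.066). Its HFD minus ND difference was -2.67 (adjusted p = 0.028) and its WL minus HFD difference -0.28 (adjusted p = 0.85; 95% confidence interval -1.43 to 0.87). Cd163, the haemoglobin scavenger receptor, had 8.84 and 8.14 in WL, 9.21, 10.07 and 9.25 in HFD and 10.53 and 10.70 in ND. The difference was -2.12 ± 0.63 (SE; adjusted p = 0.049), a call lost with any of the 4 arrays left out (adjusted p up to 0.22). Lyve1, a hyaluronan receptor, had 9.7 and 9.31 in WL, 9.57, 10.85 and 10.08 in HFD and 11.09 and 10.95 in ND. The difference was -1.52 ± 0.76 (SE; adjusted p = 0.28), which did not pass, and the folate receptor gene Folr2 differed by -1.32 (adjusted p = 0.28). For Timd4, Cd163 and Lyve1 both WL arrays lay below both ND arrays.

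Arg1 and Mmp9 were also highest in lean cells. Arg1, the arginase of alternatively activated macrophages, had 4.32 and 3.94 in WL, 5.41, 4.89 and 5.54 in HFD and 6.81 and 7.18 in ND. The difference was -2.86 ± 0.57 (SE; adjusted p = 0.0051), a call lost without ND replicate 2 (adjusted p up to 0.056). Mmp9, a gelatinase and the single matrix remodelling gene that fell, had 7.62 and 6.2 in WL, 4.3, 5.3 and 4.27 in HFD and 9.34 and 9.51 in ND. The difference was -2.51 ± 0.39 (SE; adjusted p = 0.00078). Mmp9 was lowest in HFD: HFD minus ND was -4.8 ± 0.35 (SE; adjusted p = 2e-07) and WL minus HFD 2.28 ± 0.35 (SE; adjusted p = 0.0015), so the WL arrays lay between the others without overlap. Dendritic cell genes fell in part, 4 of 15 lower and none higher (2.95% and 3.23% of all genes; 4 and 0 at an unadjusted p under 0.05), and 0 to 3 were lower with 1 array left out. The 4 were Cd209a, a lectin with several similar copies, with 5.31 and 5.45 in WL, 5.59, 7.3 and 6.33 in HFD and 8.84 and 8.68 in ND and a difference of -3.38 ± 0.73 (SE; adjusted p = 0.0084), a call lost without ND replicate 1 or ND replicate 2 (adjusted p up to 0.062); Siglech, of plasmacytoid dendritic cells, at -2.96 (adjusted p = 0.028), a call lost with any of the 4 arrays left out (adjusted p up to 0.16); Kmo, an enzyme of tryptophan breakdown, at -2.48 (adjusted p = 0.0087), a call lost without ND replicate 1 or ND replicate 2 (adjusted p up to 0.062); and the transcription factor Zbtb46 at -1.22 (adjusted p = 0.0087), a call lost without WL replicate 2, ND replicate 1 or ND replicate 2 (adjusted p up to 0.075). The median level of the 15 genes was 4.13 and 4.24 in WL and 4.80 and 4.25 in ND CD11c- ATM, against 7.88 to 7.90 in ND ATDC. The 4 genes differed in this: Siglech averaged 8.32 in ND CD11c- ATM and 5.19 in ND ATDC, and Cd209a 8.76 and 8.54. Kmo averaged 7.84 and 8.49, and Zbtb46 5.08 and 5.78. The part of dendritic cells in these falls was not tested.

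Of 20 interferon response genes, 4 fell and none rose (2.95% and 3.23% of all genes; 7 and 1 at an unadjusted p under 0.05), with a median of -0.59. Stat2, a transducer of type I interferon signals, had 4.3 and 4.61 in WL, 6.62, 5.87 and 5.74 in HFD and 6.24 and 5.93 in ND. The difference was -1.63 ± 0.36 (SE; adjusted p = 0.0095), a call lost without WL replicate 1 or ND replicate 1 (adjusted p up to 0.091). Oas2, an antiviral synthetase with related copies, differed by -1.99 (adjusted p = 0.039), a call lost with any of the 4 arrays left out (adjusted p up to 0.21). Usp18, a brake on the interferon receptor, differed by -1.78 (adjusted p = 0.034), a call lost without WL replicate 2, ND replicate 1 or ND replicate 2 (adjusted p up to 0.21), and Ifih1, the RNA sensor MDA5, by -1.07 (adjusted p = 0.011), a call lost without WL replicate 1, ND replicate 1 or ND replicate 2 (adjusted p up to 0.088). Between 0 and 2 genes of the list fell with 1 array left out. The 40 cell cycle genes held no call in either direction, and neither did the 16 genes of sterol and fatty acid synthesis. At an unadjusted p under 0.05, 3 cell cycle genes were higher and 1 lower in WL, and 1 sterol or fatty acid synthesis gene was higher and 1 lower; no other tool was run.

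**Figure D5:**
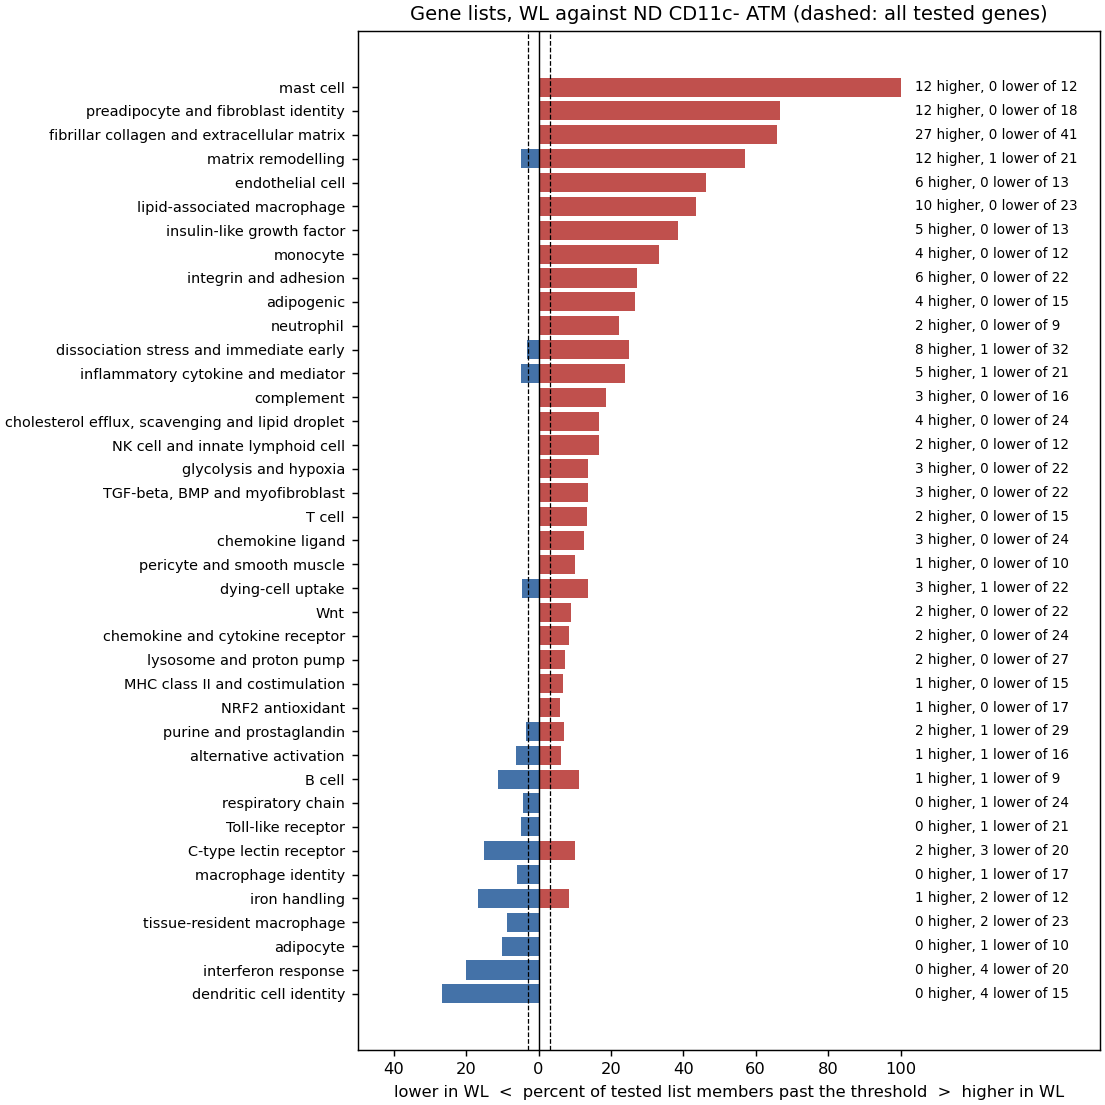
Percent of tested members that were higher (red, to the right) or lower (blue, to the left) in WL than in ND CD11c- ATM for 39 gene lists with at least 9 tested members and at least 1 call, with dashed lines at the shares of all tested genes, 3.23% higher and 2.95% lower. The mast cell list reaches 100%, and the matrix, preadipocyte and endothelial lists follow among the rises.

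Genes of other blood and vessel cells rose in smaller numbers. Of 13 endothelial cell genes, 6 rose and none fell (3.23% and 2.95% of all genes; 8 and 0 at an unadjusted p under 0.05), with a median of 1.69; leaving out WL replicate 1 left 5, WL replicate 2 left 1, ND replicate 1 left 2 and ND replicate 2 left 1. Robo4, a guidance receptor of endothelium, had 4.81 and 5.29 in WL, 2.98, 3.27 and 3.32 in HFD and 2.97 and 3.11 in ND. The difference was 2.01 ± 0.36 (SE; adjusted p = 0.0025). Pecam1, the junction protein CD31, had 6.92 and 7.95 in WL, 5.27, 5.67 and 5.58 in HFD and 5.16 and 5.21 in ND. The difference was 2.25 ± 0.49 (SE; adjusted p = 0.0089), a call lost without WL replicate 2, ND replicate 1 or ND replicate 2 (adjusted p up to 0.095). WL replicate 2 was the higher WL array for both. Kdr, a receptor for VEGF, differed by 2.26 (adjusted p = 0.032), a call lost with any of the 4 arrays left out (adjusted p up to 0.14), and Cldn5, a tight junction protein, by 1.97 (adjusted p = 0.0089), a call lost without WL replicate 2 or ND replicate 2 (adjusted p up to 0.15). The median level of the 13 genes was 4.84 and 5.60 in WL, 3.85, 3.68 and 4.18 in HFD and 3.73 and 3.58 in ND. Of 12 NK cell and innate lymphoid genes, 2 rose. Gzmb, the cytotoxic protease granzyme B, had 7.39 and 8.74 in WL, 3.95, 3.16 and 3.48 in HFD and 3.64 and 3.66 in ND. The difference was 4.41 ± 0.62 (SE; adjusted p = 0.00036), and Klrd1, an NK receptor chain, differed by 2.34 (adjusted p = 0.032), a call lost without WL replicate 1 or ND replicate 1 (adjusted p up to 0.38). The median of these 12 was 5.22 and 5.50 in WL, 3.96, 3.81 and 3.80 in HFD and 3.68 and 4.15 in ND. In dendritic cells it was 7.41 to 7.63 in ND ATDC and 5.08 to 7.31 in HFD ATDC. In ND ATDC Gzmb averaged 7.65 and Klrd1 9.41. Of 12 monocyte genes 4 rose, Nr4a1 among them. Ace, the angiotensin-converting enzyme, differed by 3.64 (adjusted p = 0.0023), the proteoglycan Vcan by 2.58 (adjusted p = 0.016), a call lost without WL replicate 1 or ND replicate 2 (adjusted p up to 0.2), and Plac8 by 1.82 (adjusted p = 0.011), a call lost without WL replicate 1 or ND replicate 2 (adjusted p up to 0.17). The list medians were 8.00 and 7.46 in WL, 6.35, 6.73 and 6.98 in HFD and 5.61 and 5.78 in ND. In ND PA the mean was 10.64 for Ace, 8.76 for Vcan and 7.38 for Plac8, against 8.24, 5.97 and 7.38 in WL CD11c- ATM. For Nr4a1, also an immediate early gene, it was 5.51 against 9.91. The alarmin genes S100a8 and S100a9 of neutrophils differed by 2.99 (adjusted p = 0.01), a call lost without WL replicate 1 or ND replicate 1 (adjusted p up to 0.15), and by 2.3 (adjusted p = 0.034), a call lost with any of the 4 arrays left out (adjusted p up to 0.18). The 12 neutrophil genes measured had medians of 2.91 and 2.97 in WL, at about the array median, against 2.77 and 3.23 in ND. Of 15 T cell genes 2 rose, the receptor gene Il7r by 2.85 (adjusted p = 0.033), a call lost with any of the 4 arrays left out (adjusted p up to 0.26), and Cd3e by 1.96 (adjusted p = 0.04), a call lost without WL replicate 1, ND replicate 1 or ND replicate 2 (adjusted p up to 0.35). The part of endothelial cells, lymphocytes, monocytes, dendritic cells and preadipocytes in these rises was not tested.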

How the data were processed

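RNA of sorted adipose tissue cells was amplified and hybridised to 24 microarrays, per the labels' protocols. The deposited values are log2 intensities normalized with RMA in the R package oligo, and limma was used by the authors, per the submitters' processing notes, with no versions. The genome build is not given there, so no gene coordinates are printed; promoter windows are RefSeq's in GRCm38.p6.

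The table held 41345 probe rows with values from -0.02 to 13.1. Of these, 23521 rows named 1 gene symbol through the platform annotation, 1814 named several and 16010 are unnamed here. For each of the 22180 genes the row with the highest mean over the 24 arrays was used (1082 genes had more than 1 row). The 15496 genes above the array's own median on at least 2 arrays were tested with limma 3.58.1 in R 4.3.3 (1 mean for each of 9 groups over all 24 arrays, 15 residual degrees of freedom, empirical Bayes, Benjamini-Hochberg adjustment over all tested genes, threshold 0.05). SE values are limma's moderated ones, with n = 2 WL, 3 HFD and 2 ND arrays, and intervals are 95%. No fold is given on a linear scale; where every array of the lower group was at or below its median, the difference from that median is given as "at least".

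Named in the text are the 15 largest rises and falls of WL against ND without overlap, the 5 largest of the other comparisons, up to 4 called members of each gene list described, and a set of macrophage and matrix genes given whatever their values; unnamed gene models and receptor families were passed over. Further members of the mast cell, immediate early and lipid-associated lists were named after their values were seen. Members and lists were chosen with earlier results of these data known. Fits on 4, 7 and 13 arrays, other filters, the mean of a gene's rows, renewed quantile normalization, centring, array weights, a trended robust variance, a replicate block and the omission of each array were the alternatives.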

Additional observations from a re-analysis of the deposited data

How the results depend on the processing

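The count of 957 genes for WL against ND was 222 in a fit of the 4 arrays alone (184 higher, 38 lower), 251 with the 7 CD11c- ATM arrays, 594 with array weights (which gave each WL array 0.57 and each ND array 1.132) and between 374 and 834 with 1 array left out. Fewer arrays enter these fits, or weigh in them; the array medians and 2 arrays a group limit every count. The other settings gave 653 to 987. The 95 genes of HFD against ND were 5 with the 7 CD11c- arrays, 41 with the 13 macrophage arrays, 206 with array weights and 30 to 176 with 1 array left out (58, 176 and 32 without HFD replicates 1, 2 and 3, and 30 and 37 without ND replicates 1 and 2). The 459 of WL against HFD were 57, 261 and 173 in the same 3 fits and 199 to 570 with 1 array left out (199 without HFD replicate 1, 277 without HFD replicate 2, and 284 higher and 197 lower without HFD replicate 3). Renewed quantile normalization moved the split of WL against HFD to 203 higher and 192 lower (51.4% higher), against 182 and 277 (39.7% higher). Members of any gene list differing between WL and ND numbered 153 of 708 (131 higher, 22 lower), and 83 with 4 arrays, 70 with 7 and 80 to 115 with 1 array left out (87 and 80 without ND replicates 1 and 2). The cause of these shifts was not tested. Of 166 named genes that passed, 72 did so whichever of the 4 arrays was left out and 55 under each of the 11 other settings, and none of these 166 changed sign between WL and ND under any of these settings. The balance of the counts did turn in places. WL against ND had 500 higher and 457 lower genes but 323 and 330 with the 13 macrophage arrays. HFD against ND had 68 and 27 but 2 and 3 with the 7 CD11c- arrays, and WL against HFD had 43 and 14 in that fit, against 182 and 277.

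The titles number the replicates, but no label says that a number marks a shared animal or batch. With 2 arrays a group the check gives 1 value, and the deviations of same-numbered WL and ND arrays correlated at 0.023, so the samples are taken to share only a number. With the replicate number as a block (replicate block), 920 genes differed between WL and ND (486 higher, 434 lower), 49 between HFD and ND and 372 between WL and HFD, and 157 list members between WL and ND.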

Other observations

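Single genes of growth factor, oxygen and complement biology also rose in WL against ND CD11c- ATM, where 3.23% of all tested genes were higher and 2.95% lower. Of 13 insulin-like growth factor genes 5 rose, with a list median of 1.25 (0.38 with 4 genes at their lower bound), and the count was 2 without WL replicate 1, ND replicate 1 or ND replicate 2. Igf2r, the receptor that carries IGF2 and lysosomal enzymes to the lysosome, had 7.27 and 7.27 in WL, 7.15, 5.97 and 7.56 in HFD and 3.84 and 3.77 in ND. The difference was 3.47 ± 0.51 (SE; adjusted p = 0.00055). It was also above ND in all HFD arrays, with HFD minus ND of 3.09 (adjusted p = 0.0029) and WL minus HFD of 0.37 (adjusted p = 0.74; 95% confidence interval -0.6 to 1.35). The binding protein genes Igfbp7 and Igfbp3 differed by 3.12 (adjusted p = 0.0012) and by 2.05 (adjusted p = 0.041), the second call lost without WL replicate 1, ND replicate 1 or ND replicate 2 (adjusted p up to 0.39), and Igfbp6 by 1.97 (adjusted p = 0.024), a call lost with any of the 4 arrays left out (adjusted p up to 0.15). Of 22 glycolysis and hypoxia genes 3 rose, with a list median of 0.19. Ndrg1, a gene induced by low oxygen, had 8.65 and 8.71 in WL, 6.41, 6.73 and 7.2 in HFD and 5.64 and 5.35 in ND. The difference was 3.19 ± 0.39 (SE; adjusted p = 7.3e-05), and both WL arrays were above all other CD11c- ATM arrays. Ndrg1 averaged 8.2 in ND PA. Vegfa, the endothelial growth factor, differed by 2.29 (adjusted p = 0.0031) and the glucose transporter gene Slc2a1 by 1.53 (adjusted p = 0.02), a call lost without WL replicate 2 or ND replicate 1 (adjusted p up to 0.22). Of 16 complement genes 3 rose, while the list median was -0.31 and 6 of the 16 differences were above 0; 1 rose without ND replicate 1 or ND replicate 2. The protease inhibitor gene Serping1 had 10.75 and 10.28 in WL, 8.91, 8.18 and 10.40 in HFD and 7.55 and 5.87 in ND. The difference was 3.81 ± 0.6 (SE; adjusted p = 0.0009). The protease gene C1s1 differed by 4.13 (adjusted p = 0.011), a call lost without WL replicate 1, ND replicate 1 or ND replicate 2 (adjusted p up to 0.075), and the membrane inhibitor gene Cd59a by 2.72 (adjusted p = 0.025) and at least 2.15, a call lost without WL replicate 1, ND replicate 1 or ND replicate 2 (adjusted p up to 0.17). Several of these genes were high in preadipocytes, whose markers rose in the same WL arrays. Igfbp7 averaged 10.38 in HFD PA and 10.19 in ND PA, Igfbp6 10.35 and 10.30, Serping1 11.26 and 11.22, and C1s1 10.28 and 10.08. The part of preadipocytes in these rises was not tested.

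For the counts that follow, 3.23% of all tested genes were higher and 2.95% lower in WL than in ND. Of 15 adipogenic genes 4 rose, against 1 in the fit of the 4 compared arrays and 0 with the 7 CD11c- ATM arrays. The list median was 0.81, and 3 of the 4 genes stand in other lists above. The fourth was Ebf2, an early factor of the adipocyte lineage, at 3.68 (adjusted p = 0.00083) and at least 3.5, with 8.04 in HFD PA and 8.46 in ND PA; the related Ebf1 of B cells and preadipocytes differed by 2.71 (adjusted p = 0.0039). Of 22 genes of integrins and adhesion 6 rose, with Jam2, a junction protein, at 2.37 (adjusted p = 0.0015), Icam1, the leukocyte adhesion ligand, at 1.47 (adjusted p = 0.0071), a call lost without WL replicate 1 or ND replicate 2 (adjusted p up to 0.076), and Itgav, an integrin chain that binds matrix and dying cells, at 1.33 (adjusted p = 0.038), a call lost with any of the 4 arrays left out (adjusted p up to 0.21). Of 22 genes for the uptake of dying cells 3 rose and Timd4 fell, with Mfge8, a bridge between dying cells and integrins, at 2.43 (adjusted p = 0.013), a call lost without WL replicate 1 or ND replicate 1 (adjusted p up to 0.17), and Anxa1, a lipid-binding annexin, at 1.03 (adjusted p = 0.015), a call lost with any of the 4 arrays left out (adjusted p up to 0.11). Tgm2, a transglutaminase and the single alternative activation gene that rose, differed by 2.24 (adjusted p = 0.0086), a call lost without WL replicate 1 or ND replicate 2 (adjusted p up to 0.12). Of 20 C-type lectin receptors 2 rose and 3 fell. Clec5a, a receptor that signals through DAP12, had 3.54 and 2.83 in WL, 5.09, 5.75 and 5.65 in HFD and 6.58 and 5.64 in ND. The difference was -2.93 ± 0.61 (SE; adjusted p = 0.0064), a call lost without WL replicate 2 or ND replicate 1 (adjusted p up to 0.089). The iron genes Lcn2 and Tfrc went opposite ways, at 1.69 (adjusted p = 0.04), a call lost without WL replicate 1, ND replicate 1 or ND replicate 2 (adjusted p up to 0.33), and -1.43 (adjusted p = 0.021), a call lost with any of the 4 arrays left out (adjusted p up to 0.13). A zinc finger gene with similar copies, Zfp873, was low in WL with 2.42 and 2.55, against 4.92, 6.57 and 4.99 in HFD and 5.29 and 5.38 in ND; its WL minus ND difference was -2.85 (adjusted p = 0.019), a fall of at least 2.21, a call lost with any of the 4 arrays left out (adjusted p up to 0.11).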
